A study of Mus musculus with 11 samples.

Results

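GGsTop, an inhibitor of γ-glutamyl transferase, was compared with its vehicle in the airway of mice that had been given ovalbumin (OVA) and lipopolysaccharide (LPS). The comparison took in 8 of the 11 libraries of the series, 4 from mice given OVA, LPS and vehicle (OVA/LPS/Vehicle) and 4 from mice given OVA, LPS and GGsTop (OVA/LPS/GGsTop), and the 3 PBS libraries stayed outside it. The table held 21899 genes, and 14004 of these averaged 0.5 FPKM or more across the 11 libraries and were tested. FPKM are fragment counts scaled for transcript length and for how many fragments a library held.

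γ-Glutamyl transferase sits on the outer face of the cell membrane and cleaves extracellular glutathione, the main thiol antioxidant, so that its amino acids can be taken up again. The same enzyme turns leukotriene C4 into leukotriene D4, a constrictor of airway smooth muscle. OVA with alum raises an allergic, type 2 response in the airway, and LPS given on top of it adds a neutrophilic, steroid-resistant component through TLR4.

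All mice were male BALB/c mice of wild-type genotype and young adult age. Both groups had been sensitised to OVA with alum in the peritoneum and then challenged with OVA and, later, with LPS through the nose. GGsTop or vehicle was instilled into the trachea from the day of the last LPS dose onward, and the tissue was taken after the course of treatment. The sample labels give the groups as OL and OLG and the tissue as trachea, whereas the methods of the study describe airway separated bluntly from the lung and without the trachea. The OL libraries carry the labels 12, 34, 56 and 78 and the OLG libraries the labels 1 to 4. Whether a label such as 12 stands for a pool of mice is not given in the sources used here, nor is the hour at which the tissue was taken. The p-values measure the spread between these libraries, which may be technical.

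Values of single libraries are given in the order 12, 34, 56 and 78 for vehicle and 1, 2, 3 and 4 for GGsTop. The FPKM of 21413 genes (97.8%) were whole multiples of 1 fragment in every library, within a tolerance of 0.02 of a fragment, and these steps put the libraries at 14513136 to 16710800 fragments. One fragment on a transcript of 1 kb was worth 0.0598 to 0.0689 FPKM in the 8 libraries, so that levels near these values rest on single fragments. The fold changes are differences of the mean log2(FPKM + 1), GGsTop minus vehicle, and understate the change of genes at low levels. The level filter averaged all 11 libraries, so a gene near 0.5 FPKM could pass it through the group in which it was high. For such a gene the filter favoured that direction.

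Markers of club and ciliated cells of the airway were present in every library. Scgb1a1, the secretory protein of club cells, stood at 31370, 47905, 42534 and 45097 FPKM with vehicle and at 42233, 39538, 47126 and 38967 FPKM with GGsTop, and Foxj1, the master regulator of motile cilia, at 61.4 to 157 FPKM over the 8 libraries. Sftpc, a surfactant protein of alveolar type 2 cells, reached 3541 to 9516 FPKM, so alveolar tissue was in the libraries as well. Other markers set single libraries apart. Acan, a cartilage proteoglycan, was at 5.87, 7.06, 2.13 and 4.14 FPKM with vehicle and at 0, 5.55, 0 and 23 FPKM with GGsTop, and Krt5, a keratin of basal cells, at 16, 13.5, 11.3 and 11 FPKM and 2.3, 7.12, 0.0288 and 33.1 FPKM. GGsTop 1 and 3 were thus near 0 for cartilage and low for Krt5, while GGsTop 4 was above all other libraries. Rag1, which recombines antigen receptor genes in thymocytes, was at 8.53 FPKM in Vehicle 12 and at 0.0287 FPKM or less in the other 7 libraries. The part of these differences in the results was not tested, beyond leaving out each library in turn.

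With GGsTop, 1406 of the 14004 genes were lower (10%) and 2119 were higher (15.1%) at an adjusted p under 0.05 (limma). These shares are the background of the gene lists described here, and a percentage after a count of members is the share of the list's tested genes. Where it is near 10% lower or 15.1% higher, the list was called about as often as all genes were. The median log2 fold change of all genes tested was 0.03, and 38 of the lower and 18 of the higher genes changed by more than 1 on the log2 scale. With libraries scaled to the same median, 1661 genes were lower and 1682 higher. Of the genes tested, 1733 (12.4%) had all 4 GGsTop libraries below all 4 vehicle libraries, and 2420 (17.3%) had all 4 above. Of the 3525 genes called, 1840 were called in each of the 8 fits that left out 1 library.

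The fold changes ran with the GC content of the transcripts. Taken library by library, deviations from the gene means sloped by −0.11, −0.18, −0.178 and −0.153 log2 per 10 points of GC content with vehicle and by 0.127, 0.157, 0.15 and 0.188 with GGsTop, so the groups did not overlap. In the fifth of the genes with the lowest GC content, 1032 were lower and 8 higher, and in the fifth with the highest GC content 10 were lower and 1082 higher. This slope and the treatment cannot be told apart in these libraries. A fit on values from which the GC curve of each library had been subtracted called 82 genes lower (0.586%) and 120 higher (0.858%) of 13987 genes, and 78 of the lower and 107 of the higher genes were called by both fits. Of these 185 genes at most 11 kept their adjusted calls when any library other than GGsTop 4 was left out, and limma called 0 lower and 0 higher genes without Vehicle 56 (884 lower and 1416 higher at an unadjusted p under 0.05). For the genes called on the deposited values, the text therefore says whether the call held after GC correction.

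**Figure D1:**
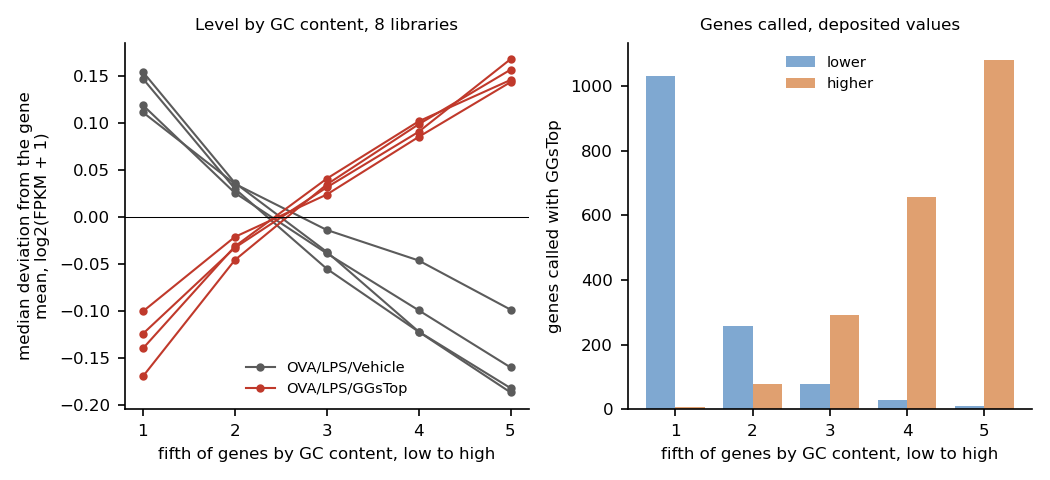
Median deviation of each library from the gene means for 5 equal groups of genes ordered by GC content (left). Number of genes called lower and higher with GGsTop on the deposited values in the same groups (right). Genes of low GC content were mostly lower and genes of high GC content mostly higher with GGsTop, and the 4 vehicle and 4 GGsTop libraries tilt in opposite directions.

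**Figure D2:**
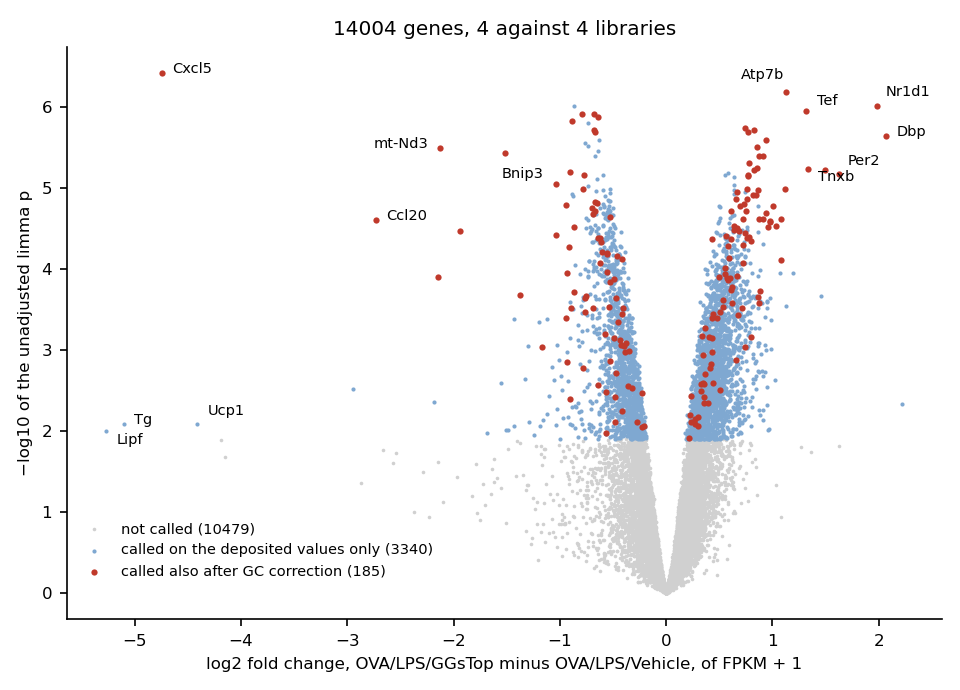
Log2 fold change of GGsTop against vehicle (x axis) and −log10 of the unadjusted limma p (y axis) for 14004 genes. Grey points were not called, blue points were called on the deposited values only and red points were also called after GC correction, and clock genes and chemokines stand among the red points farthest from 0.

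Genes of the circadian clock, Per1, Per2, Per3, Nr1d1, Dbp and Tef, were 6 of the 18 that rose by more than 1 on the log2 scale. The clock is a loop in which the activators BMAL1 (Arntl), CLOCK and NPAS2 switch on their own repressors, the period, cryptochrome and REV-ERB genes, and output factors such as DBP. It runs in airway epithelium and sets the daily course of neutrophil recruitment in the lung, where glucocorticoids help to time it. With GGsTop, most repressor and output genes were higher and the activators Arntl, Clock and Npas2 lower. Of 13 repressor and clock-regulating genes tested, 8 rose (61.5%) and 2 fell (15.4%), with a median log2 fold change of 0.77 (after GC correction 5 rose, 0 fell and the median was 0.55). Of 5 activator genes 3 fell (60%), with a median of −0.49 (after GC correction 2 fell and the median was −0.19), and of 4 genes of the PAR bZIP family and its antagonist 3 rose (75%), with a median of 1.02.

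Among the repressors, Per1 was at 7.58, 14, 18.6 and 15.5 FPKM with vehicle and at 48.8, 36.2, 36.4 and 32.7 FPKM with GGsTop, a change of 1.45 (SE 0.24, adjusted p = 0.00535). Its groups did not overlap, and after GC correction it was at 1.16 (adjusted p = 0.0613). Per2, its partner in the repressor complex, was at 7.48, 6.83, 8.74 and 9.96 FPKM and 33.4, 19.9, 32.6 and 25.9 FPKM, with 1.63 (SE 0.17, adjusted p = 0.00248) and 1.45 (adjusted p = 0.0243) after GC correction. Per3 was at 3.91, 4.54, 4.17 and 4.59 FPKM and 18.9, 11.7, 15.4 and 10.9 FPKM and was called in both fits, as was Nr1d1. GGsTop 1 and 3 held the upper values of Per2 and Per3, and their lowest GGsTop library was still above every vehicle library. Cry2, a cryptochrome, was tight within groups, at 8.4, 7.78, 7.98 and 8.23 FPKM and 15.8, 13.1, 14.7 and 14.7 FPKM, and changed by 0.77 (SE 0.07, adjusted p = 0.00193), with 0.55 (adjusted p = 0.0292) after GC correction. Cry1, the other cryptochrome, went the other way, at 10, 7.12, 7.83 and 8.85 FPKM and 6.68, 5.36, 6.68 and 5.93 FPKM, a change of −0.40 (SE 0.11, adjusted p = 0.0316) that was called in 3 of the 8 fits with a library left out and was at −0.48 (adjusted p = 0.0644) after GC correction.

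The nuclear receptors Nr1d1 and Nr1d2 encode REV-ERBα and REV-ERBβ, which repress Arntl. Nr1d1 was at 9.73, 15.4, 10.8 and 10.6 FPKM and 55.7, 39.6, 57.7 and 42.7 FPKM, and Nr1d2 at 15.3, 23.6, 22.7 and 19 FPKM and 44.8, 33.6, 36.5 and 34.6 FPKM. Both were higher in every GGsTop library, and Nr1d2 changed by 0.87 (SE 0.14, adjusted p = 0.00539), with 1.14 (adjusted p = 0.0243) after GC correction. Bhlhe40, a repressor at E-boxes, rose by 0.50 (SE 0.12), but not after GC correction (0.47 (adjusted p = 0.068)). Csnk1d, a kinase of the period proteins, rose by 0.36 (adjusted p = 0.00664), and did not keep its call after GC correction. Ciart was at 6.42, 5.37, 6.66 and 6.67 FPKM and 18.1, 8.2, 19.4 and 6.87 FPKM, where GGsTop 1 and 3 stood above the others, and was not called (adjusted p = 0.073).

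Arntl was at 4.81, 3.59, 3.4 and 3.95 FPKM with vehicle and at 1.17, 1.9, 1.54 and 2.26 FPKM with GGsTop, a change of −0.87 (SE 0.14, adjusted p = 0.00517) and of −0.87 (adjusted p = 0.0319) after GC correction. Npas2, at 3.41, 3.42, 3.29 and 3.98 FPKM and 0.859, 1.63, 0.807 and 2.54 FPKM, changed by −0.93 (SE 0.20, adjusted p = 0.0133) and by −1.04 (adjusted p = 0.0466) after GC correction. Every GGsTop library was below every vehicle library for both genes. Clock was at 8.67, 9.71, 8.95 and 9.22 FPKM and 5.98, 6.19, 6.28 and 6.38 FPKM, and its change of −0.49 (SE 0.06, adjusted p = 0.00314) was not called after GC correction (−0.19 (adjusted p = 0.134)). Rora, a nuclear receptor that activates Arntl, was not called, at −0.17 (adjusted p = 0.254).

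Of the output factors, Dbp was at 3.15, 5.05, 5.3 and 3.18 FPKM and 27, 17.3, 21.3 and 16.9 FPKM, Tef at 16.5, 17.6, 16.8 and 17.7 FPKM and 54.3, 36.7, 46.5 and 41.7 FPKM, and Hlf at 2.26, 2.64, 2.44 and 2.97 FPKM and 5.01, 4.54, 4.27 and 5.93 FPKM. The vehicle and GGsTop libraries did not overlap for any of the 3 genes, and all were called after GC correction, Hlf at 0.86 (adjusted p = 0.0243). Nfil3, which represses the same D-box sites, was at 9.2, 8.49, 10.9 and 12.4 FPKM and 5.97, 8.77, 4.85 and 12.6 FPKM and overlapped between the groups (adjusted p = 0.287). Wee1, a cell cycle kinase known as a clock output and chosen after its values were seen, changed by 0.68 (SE 0.12, adjusted p = 0.00672) and by 0.63 (adjusted p = 0.0466) after GC correction. In the PBS libraries, which enter no test here, Per2 was at 5.12, 5.04 and 6.58 FPKM, Tef at 14.7, 16.3 and 13 FPKM and Arntl at 5.89, 5.19 and 5.55 FPKM, all on the vehicle side of the GGsTop libraries. Other clock genes did not keep to that side. Clock was at 7.83, 7.85 and 5.72 FPKM, the last below every GGsTop library. Cry1 was at 10.5, 6.01 and 9.37 FPKM, with PBS 2 within the GGsTop range.

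**Figure D3:**
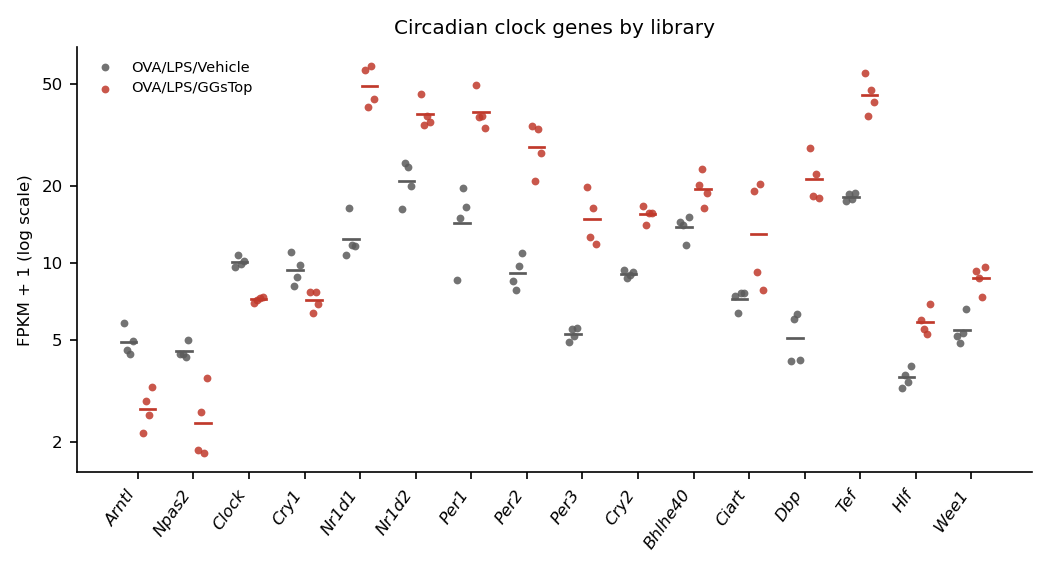
FPKM + 1 of clock genes on a log axis, with a point for each of the 4 vehicle and 4 GGsTop libraries and a bar at the mean of log2(FPKM + 1) of the group, transformed back to FPKM + 1. The activators are lower and most repressors and output factors higher in the GGsTop libraries, without overlap for Per1, Per2, Per3, Nr1d1, Dbp and Tef.

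The promoters of 3 of these genes are shown because they hold the motif of a clock factor within the 250 bases before the transcription start in RefSeq. Capitals mark the E-box CACGTG, the site of BMAL1 and CLOCK, or the D-box TTANGTAA, the site of DBP, TEF and HLF, both searched on both strands. Per1 lies on the plus strand at chr11:69098699-69098948 of GRCm38.p6, with its E-box 166 bases before the start. Per3 lies on the minus strand at chr4:151044666-151044915, with D-boxes 205 and 158 bases before the start, and Tef on the plus strand at chr15:81802423-81802672, with an E-box 127 bases before it. These coordinates belong to the RefSeq windows and not to the build of the deposited table.
Per1: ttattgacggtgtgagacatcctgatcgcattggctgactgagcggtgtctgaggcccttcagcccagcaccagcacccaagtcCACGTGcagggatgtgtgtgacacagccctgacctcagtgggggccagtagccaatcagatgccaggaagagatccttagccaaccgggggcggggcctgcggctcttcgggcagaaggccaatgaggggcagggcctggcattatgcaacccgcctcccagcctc
Per3: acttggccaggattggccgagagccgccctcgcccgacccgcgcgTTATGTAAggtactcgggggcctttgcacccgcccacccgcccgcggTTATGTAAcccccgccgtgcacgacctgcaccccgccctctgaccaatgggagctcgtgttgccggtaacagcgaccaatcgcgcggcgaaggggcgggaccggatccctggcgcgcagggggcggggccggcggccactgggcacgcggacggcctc
Tef: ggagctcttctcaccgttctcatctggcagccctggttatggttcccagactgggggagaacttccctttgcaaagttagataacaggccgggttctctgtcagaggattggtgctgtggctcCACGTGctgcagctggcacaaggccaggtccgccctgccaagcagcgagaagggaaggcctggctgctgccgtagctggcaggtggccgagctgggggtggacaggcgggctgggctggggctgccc

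An E-box was found in the windows of 4 of the 9 repressor genes with a window (Per1, Cry1, Ciart and Bhlhe41) and a D-box in 1 (Per3). Over all 32851 windows of this length, 6.02% held an E-box and 2.06% a D-box. None of the 4 activator genes with a window held an E-box. The letters AGGTCA, bound by REV-ERB factors when suitably flanked, were found for 2 of the 9 repressor genes with a window (Per1 and Nr1d2). They were also found for 1 of 4 activator genes (Clock) and 1 of 4 PAR bZIP and antagonist genes (Nfil3). The 3 lists had 13, 7 and 5 windows, and the finds were near the 14.02% of all windows that held these letters. A match is a description of the letters and not a measured site.

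Glucocorticoids act through the receptor Nr3c1 and are known to induce Per1, Fkbp5, Klf15 and Arrdc2. Of 27 genes of the receptor and its targets, 4 rose (14.8%) and 2 fell (7.41%), shares near those of all genes, with a median of 0.12 (−0.00267 after GC correction). Fkbp5, a chaperone of the receptor, was at 3.11, 1.69, 2.17 and 2.29 FPKM with vehicle and 3.75, 4.27, 3.84 and 4.72 FPKM with GGsTop. These values did not overlap, and the change was 0.65 (SE 0.13, adjusted p = 0.0103), with 0.56 (adjusted p = 0.0524) after GC correction. Klf15 rose by 0.95 (SE 0.23), from 9.29, 13.9, 21.7 and 18.2 FPKM to 32.3, 24, 35.3 and 29.7 FPKM, and Arrdc2 by 0.88 (SE 0.17). Nr3c1 itself changed by −0.39 (adjusted p = 0.0151). After GC correction limma called none of the 27 genes (at an unadjusted p under 0.05, 1 lower and 5 higher).

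The chemokines Cxcl5, Ccl20, Cxcl1 and Cxcl2 were lower with GGsTop. These small secreted proteins draw neutrophils through CXCR2, or act through CCR6 in the case of Ccl20, and airway epithelium makes them when NF-κB is active. Of 9 genes tested, which also took in the receptors Cxcr1 and Cxcr2 and the neutrophil protein Lcn2, these 4 fell (44.4%), the other 5 were not called, and the median was −0.55 (−0.57 after GC correction, with 3 lower). Cxcl5 was at 39, 72.6, 54.3 and 73.7 FPKM with vehicle and at 0.428, 1.92, 0.442 and 2.94 FPKM with GGsTop. GGsTop 1 and 3 were the lowest, no library came near the other group, and Cxcl5 was called in 7 of the 8 GC-corrected fits with a library left out. Ccl20, which draws dendritic cells and Th17 cells, was at 13.6, 26.3, 24.1 and 11.3 FPKM and 1.36, 1.94, 0.892 and 3.85 FPKM, with GGsTop 4 above the other GGsTop libraries. Cxcl1 was at 7.78, 10.5, 4.48 and 5.36 FPKM and 1.59, 2.35, 1.55 and 2.49 FPKM, and Cxcl2 at 2.15, 2.78, 1.58 and 0.868 FPKM and 0.225, 0.233, 0.429 and 0.555 FPKM. The groups of both genes stood apart, and Cxcl2 was past the threshold on the deposited values but not after GC correction (−0.89 (adjusted p = 0.0632)). With a mean of 0.333 FPKM in the PBS libraries, Cxcl2 passed the level filter only through vehicle, so the filter favoured its fall.

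The promoters of Cxcl1 and Cxcl2 are shown because each holds 2 copies of the NF-κB motif (GGG, then 2 bases of any kind, then TTTCC), in capitals on either strand, at 89 and 71 bases before the start in Cxcl1 and at 97 and 78 in Cxcl2. Both genes lie on the plus strand, Cxcl1 at chr5:90890995-90891244 and Cxcl2 at chr5:90903649-90903898 of GRCm38.p6.
Cxcl1: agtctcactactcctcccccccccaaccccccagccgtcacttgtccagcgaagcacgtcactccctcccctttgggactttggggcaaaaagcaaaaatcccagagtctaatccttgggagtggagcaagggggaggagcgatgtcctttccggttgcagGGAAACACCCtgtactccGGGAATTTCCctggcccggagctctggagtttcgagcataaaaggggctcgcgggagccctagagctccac
Cxcl2: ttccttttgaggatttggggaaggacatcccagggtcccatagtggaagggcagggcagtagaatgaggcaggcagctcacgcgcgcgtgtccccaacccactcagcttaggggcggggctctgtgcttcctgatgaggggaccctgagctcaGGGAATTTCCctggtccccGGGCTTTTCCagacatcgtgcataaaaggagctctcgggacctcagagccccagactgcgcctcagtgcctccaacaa

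Ccl20 held the motif as well, so that 3 of the 8 genes of this list with a window did, the receptor Cxcr2 among the others, against 1.41% of all windows. No match was found in the window of any clock gene of the lists above.

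Tnfaip2, a gene induced by TNF and chosen after its values were seen, followed the chemokines, at 15.4, 22.7, 12.8 and 14.5 FPKM and 8.06, 8.32, 9.02 and 6.26 FPKM. It changed by −0.94 (SE 0.17, adjusted p = 0.00697) and by −1.21 (adjusted p = 0.0319) after GC correction. The transcripts of the NF-κB pathway itself did not fall together. Of 26 subunit and feedback genes 7 rose (26.9%) and 2 fell (7.69%), and the median was 0.15 (after GC correction 1 rose, 0 fell and the median was −0.01). Nfkb1, which encodes p105 and p50, changed by 0.24 (SE 0.07, adjusted p = 0.0363) and kept its call after GC correction, Rela by 0.36 (SE 0.10, adjusted p = 0.0293) and Rel by −0.35 (SE 0.10, adjusted p = 0.032), and the last pair of calls was lost (0.07 (adjusted p = 0.775) and −0.11 (adjusted p = 0.523)). Cyld, a deubiquitinase that restrains the pathway, changed by −0.34 (adjusted p = 0.0104), a call that was lost after GC correction (−0.13 (adjusted p = 0.282)).

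Among 19 CC chemokine and receptor genes 3 fell (15.8%) and none rose, with a median of −0.27 (−0.09 after GC correction). Ccl28, a mucosal chemokine for CCR10 and CCR3, was at 2.21, 2.09, 2.65 and 2.21 FPKM with vehicle and 0.576, 0.256, 0.131 and 1.3 FPKM with GGsTop. The groups stood apart and the change was −1.13 (SE 0.21, adjusted p = 0.00716). Ccr2, the receptor that brings monocytes from the blood, was at 10.4, 10.3, 6.98 and 9.44 FPKM and 4.36, 5.84, 4.72 and 4.92 FPKM, a change of −0.78 (SE 0.13, adjusted p = 0.00539). Of its ligands, Ccl7 changed by −0.83 (SE 0.26, adjusted p = 0.0486), a call kept in 1 of 8 fits with a library left out, and Ccl2 was at 3.4, 4.17, 2.92 and 5.36 FPKM and 1.52, 3.94, 0.947 and 3.38 FPKM, which overlapped (adjusted p = 0.168). None of the 3 calls held after GC correction (−0.82 (adjusted p = 0.0734) for Ccl28, −0.44 (adjusted p = 0.107) for Ccr2 and −0.60 (adjusted p = 0.213) for Ccl7).

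Interferon-γ acts through IFNGR1 and IFNGR2 and induces the guanylate-binding proteins. Of 29 genes of this response 3 fell (10.3%) and 1 rose (3.45%), shares near or under those of all genes, with a median of −0.44. All 4 GGsTop libraries were below all 4 vehicle libraries for 11 of the 29 genes and above them for 1. Among all genes tested these shares were 12.4% and 17.3%. After GC correction 2 of the 29 fell and 0 rose, with a median of −0.38, against 0.586% lower and 0.858% higher among all genes. The mean log2(FPKM + 1) of the list was 3.77, 2.79, 2.86 and 2.89 with vehicle and 2.68, 2.71, 2.7 and 2.48 with GGsTop, so that Vehicle 12 stood apart from the other vehicle libraries. Ifngr2 was at 19.97, 21, 23.5 and 22.5 FPKM and 16.6, 16.5, 16.4 and 14.8 FPKM, a change of −0.41 (SE 0.07, adjusted p = 0.0067) that kept its call after GC correction (−0.46 (adjusted p = 0.0484)). Gbp7, a guanylate-binding protein, was at 31.1, 11.8, 11.5 and 11.5 FPKM and 7.71, 6.87, 8.07 and 4.86 FPKM. Vehicle 12 was far above the other libraries for Gbp7, which was called in 1 of the 8 fits with a library left out and not after GC correction (−0.76 (adjusted p = 0.182)). Socs1 and Socs3, which restrain cytokine receptors, moved apart, at −0.57 (SE 0.18, adjusted p = 0.0444) and 0.59 (SE 0.16, adjusted p = 0.0300). Socs1 was above the other vehicle libraries in Vehicle 12 and lost its call whichever library was left out, and it was called after GC correction (−0.86 (adjusted p = 0.048)), while Socs3 was not (0.30 (adjusted p = 0.339)).

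Of 33 genes listed as stimulated by type I interferon 4 fell (12.1%) and 1 rose (3.03%), with a median of −0.14. The rise was that of Ifitm5, at 0.96 (SE 0.29, adjusted p = 0.0423), and it was lost after GC correction (0.72 (adjusted p = 0.196)). The study calls Ifitm5 interferon-related, and whether it responds to interferon here was not tested. Rtp4, an antiviral effector, was at 14.7, 14.8, 13 and 11.9 FPKM and 8.45, 8.44, 10.3 and 9.13 FPKM, with −0.54 (SE 0.09, adjusted p = 0.00608) and −0.56 (adjusted p = 0.0457) after GC correction. Ifi44 changed by −0.70 (SE 0.13, adjusted p = 0.00675) and Ifit1 by −0.54 (SE 0.16, adjusted p = 0.0349), and neither held after the correction. In the presentation of peptides on MHC class I, 3 of 17 genes fell (17.6%). Pdia3, a disulphide isomerase of the loading complex, was at 173, 185, 190 and 189 FPKM and 117, 125, 127 and 141 FPKM, with −0.53 (SE 0.08, adjusted p = 0.00456) and −0.48 (adjusted p = 0.0481) after GC correction. Erap1, which trims the peptides, changed by −0.47 and Psme2, an activator of the proteasome, by −0.31, and neither call held after the correction. No member was called by limma among the 13 genes of class II presentation, which had a median of −0.19 (1 lower and 0 higher at an unadjusted p under 0.05).

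Transcripts of the type 2 response did not move as a group. Of 25 genes 1 rose (4%) and 1 fell (4%), with a median of 0.06. Stat6, the factor downstream of IL-4 and IL-13, was at 29.8, 27.5, 25.4 and 31.4 FPKM and 42.8, 35.9, 44 and 35.4 FPKM, a change of 0.46 (SE 0.10, adjusted p = 0.0136). Postn, the matrix protein periostin that IL-13 induces, changed by −0.43 (SE 0.11, adjusted p = 0.0206). Neither was called after GC correction, where Postn was at −0.03. Tslp, an epithelial alarmin, was at 2.44 ± 0.471 FPKM (SD, n = 4) with vehicle and 2.72 ± 0.774 FPKM (SD, n = 4) with GGsTop (adjusted p = 0.694). Il5, Il13 and Il25 lay under the level filter, at up to 0.316 FPKM in any of the 8 libraries, and an exact two-sided permutation test of their log2 values gave p = 0.914 for Il5, p = 0.371 for Il13 and p = 1 for Il25. The smallest p that 4 against 4 libraries allow in that test is 0.0286. At this depth such levels are a few fragments, and a difference could not be detected. Il6 (p = 0.0571, exact permutation test) and Ifng (p = 0.429, exact permutation test) were also under the filter, and Il17a was listed at 0 in all 8 libraries.

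The gel-forming mucins overlapped widely. Muc5ac was at 7.21, 8.03, 3.38 and 11.5 FPKM with vehicle and at 7.84, 10.5, 1.51 and 23.8 FPKM with GGsTop, and Muc5b at 21.4, 27.3, 17 and 31 FPKM and 37.8, 40.3, 9.46 and 80.8 FPKM. GGsTop 3 was the lowest and GGsTop 4 the highest library for both genes, the same pair that stood apart for cartilage and basal cell markers. Neither was called (adjusted p = 0.878 and adjusted p = 0.545), nor was any other of the 17 mucus and goblet cell genes, of which the median was −0.01 (0 lower and 1 higher at an unadjusted p under 0.05, limma).

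**Figure D4:**
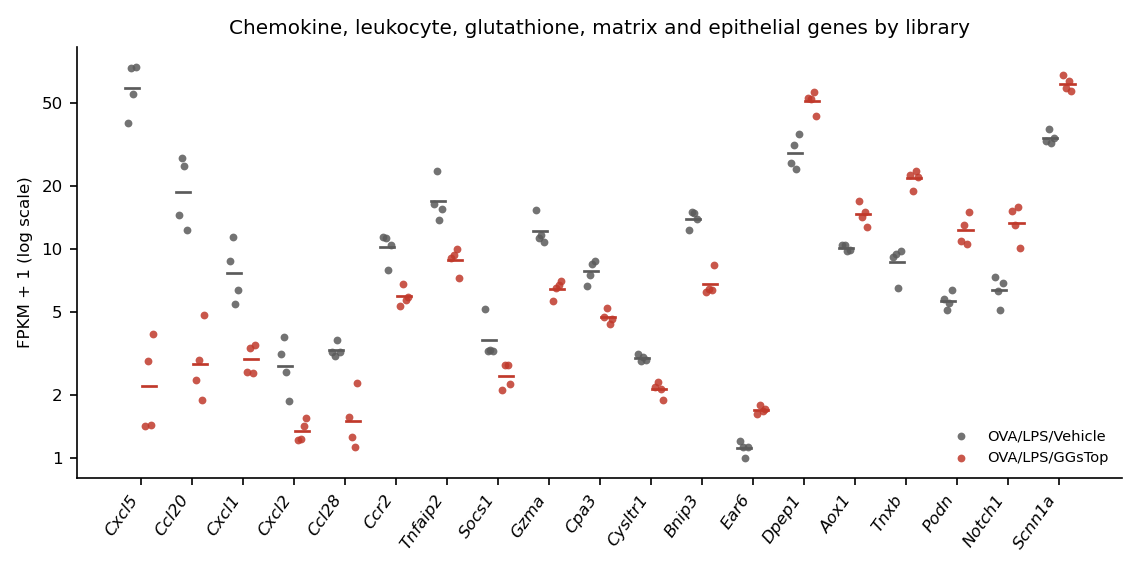
FPKM + 1 of chemokines and other genes of the response on a log axis, with a point for each of the 4 vehicle and 4 GGsTop libraries and a bar at the mean of log2(FPKM + 1) of the group, transformed back to FPKM + 1. The chemokines Cxcl5, Ccl20 and Cxcl1 are lower in every GGsTop library than in any vehicle library.

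In whole tissue, fewer cells of a type and less RNA per cell cannot be told apart, and this holds for all genes of leukocytes and tissue cells that follow. Genes of neutrophils were not called in either direction. Over 16 genes tested with limma the calls were 0 in both directions, 0 genes were lower and 0 higher at an unadjusted p under 0.05, and the median was −0.05. S100a8 and S100a9, the abundant calcium-binding proteins of neutrophils, were at 27.5, 40.1, 21.5 and 32.7 FPKM against 24.1, 39.9, 28.2 and 18 FPKM and at 117, 156, 90.4 and 135 FPKM against 80.3, 146, 114 and 67.4 FPKM. These values overlapped (adjusted p = 0.673 and adjusted p = 0.375), and the defining marker Ly6g lay under the filter at up to 1.02 FPKM (p = 0.371, exact permutation test).

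All 10 eosinophil genes tested had a higher mean log2 level with GGsTop, 2 of them past the threshold (20%), with a median of 0.41. At an unadjusted p under 0.05 (limma) 0 were lower and 2 higher. The mean log2(FPKM + 1) of the list overlapped between the groups. It was 2.39, 2.18, 1.52 and 2.64 with vehicle and 2.67, 2.82, 2.34 and 2.46 with GGsTop. Prg2, the major basic protein, was at 1.39, 0.604, 0.599 and 1.36 FPKM and 2.3, 2.14, 1.59 and 1.85 FPKM, a change of 0.60 (SE 0.17, adjusted p = 0.0297) that was not called after GC correction (0.48 (adjusted p = 0.118)). Ear6, an eosinophil-associated ribonuclease, was at 0.205, 0.134, 0 and 0.127 FPKM and 0.632, 0.802, 0.671 and 0.715 FPKM, with 0.61 (SE 0.10, adjusted p = 0.00504) and 0.61 (adjusted p = 0.0334) after GC correction. Ear6 has near-identical relatives in the mouse genome, among which reads can be split, and its levels amount to a few fragments. It averaged 0.116 FPKM with vehicle, 0.705 FPKM with GGsTop and 0.748 FPKM with PBS. Ear6 passed the level filter only with its GGsTop values counted, so the filter favoured a rise. Epx, the eosinophil peroxidase, was at up to 0.262 FPKM and overlapped between the groups (p = 0.971, exact permutation test).

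Of 11 genes of cytotoxic lymphocytes 3 fell (27.3%). Gzma, the granule protease granzyme A, was at 14.4, 10.3, 10.7 and 9.76 FPKM with vehicle and at 4.62, 5.55, 5.73 and 6.04 FPKM with GGsTop, without overlap, and kept its call after GC correction (−0.73 (adjusted p = 0.0409)). Ncr1, the activating receptor NKp46 of natural killer cells, changed by −0.54 (SE 0.13, adjusted p = 0.0161) and Serpinb9, an inhibitor of granzyme B, by −0.53 (SE 0.13, adjusted p = 0.0211), and neither held after the correction. Of 11 mast cell and basophil genes 1 fell (9.09%) and 1 rose (9.09%). Cpa3, a carboxypeptidase of mast cells, was at 5.66, 6.51, 7.53 and 7.81 FPKM and 3.72, 4.22, 3.38 and 3.65 FPKM, a change of −0.72 (SE 0.11, adjusted p = 0.00392) and of −0.44 (adjusted p = 0.0677) after GC correction. Il3ra rose by 0.39 (adjusted p = 0.0356), a call that was lost after the correction (0.09 (adjusted p = 0.725)). Mcpt4, another mast cell marker, overlapped, at 3.32, 2.34, 3.06 and 1.57 FPKM and 1.2, 1.62, 1.09 and 3.05 FPKM.

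In the macrophage list 1 of 26 genes rose (3.85%) and 0 fell, with a median of 0.14 (4 lower and 3 higher at an unadjusted p under 0.05, limma). The macrophage markers Adgre1 and C1qa overlapped between the groups. Adgre1 was at 10.3, 8.34, 4.22 and 12.5 FPKM with vehicle and 8.59, 12.4, 7.5 and 10.9 FPKM with GGsTop. C1qa was at 64.1, 53, 53 and 79.9 FPKM and 54.5, 78.7, 56.4 and 82.3 FPKM. Csf1r, the receptor that sustains macrophages, was at 18.7, 16.5, 12.4 and 20.1 FPKM and 25.1, 28.5, 26.9 and 23.4 FPKM, a change of 0.61 (SE 0.14, adjusted p = 0.0156) (0.42 (adjusted p = 0.116) after GC correction). Mzb1, a chaperone of plasma cells and the single call among 21 B cell and plasma cell genes, changed by 0.69 (SE 0.19, adjusted p = 0.0312) and was not called after GC correction (0.52 (adjusted p = 0.12)), while the median of that list was −0.45. Cmklr1, Stab1 and Flt3l were chosen after their values were seen. Cmklr1, the chemerin receptor, was at 8.48, 10.4, 8.67 and 9.76 FPKM and 14.5, 15.4, 16.5 and 16.4 FPKM. Stab1, a scavenger receptor of macrophages and sinusoidal endothelium, was at 9.2, 8.36, 7.01 and 8.71 FPKM and 20.3, 15.2, 21.9 and 15.6 FPKM, and Flt3l, a growth factor of dendritic cells, at 2.98, 2.92, 3.01 and 2.79 FPKM and 6.8, 4.69, 6.01 and 5.3 FPKM. None overlapped between the groups, and all kept their calls after GC correction, at 0.50, 0.77 and 0.71.

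The transcripts of the γ-glutamyl transferases were low, and none was called. Ggt1, the transferase of classical glutathione breakdown, was at 0.605, 0.575, 1.25 and 0.544 FPKM and 0.623, 0.242, 0.595 and 0.594 FPKM, where Vehicle 56 stood above and GGsTop 2 below the others (−0.19, adjusted p = 0.383). Ggt5, which prefers leukotriene C4, was at 1.25, 1.34, 0.784 and 1.152 FPKM and 1.41, 1.57, 1.65 and 1.62 FPKM. Every GGsTop library was higher for Ggt5, and the change of 0.27 (SE 0.10) missed the threshold (adjusted p = 0.0867). Ggt6 (0.19, adjusted p = 0.485) and Ggt7 (0.27, adjusted p = 0.273) were not called. These are transcripts, and the activity of the enzymes was not measured in these files.

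Of 11 genes of glutathione breakdown 1 rose (9.09%) and 1 fell (9.09%). Dpep1, the dipeptidase that acts after γ-glutamyl transferase and turns leukotriene D4 into leukotriene E4, was at 24.8, 30.5, 23.3 and 34.3 FPKM with vehicle and at 51.7, 51.1, 55.7 and 42.3 FPKM with GGsTop. The groups did not overlap, and the change was 0.82 (SE 0.14, adjusted p = 0.00535), with 0.67 (adjusted p = 0.0606) after GC correction. Chac2, which degrades glutathione within the cell, was at 7.21, 7.79, 9.21 and 7.96 FPKM and 5, 5.13, 5.11 and 7.04 FPKM, a change of −0.47 (SE 0.11, adjusted p = 0.0194) and of −0.09 (adjusted p = 0.687) after GC correction. GGsTop 4 was above the other GGsTop libraries, and Chac2 was called in 5 of 8 fits with a library left out.

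Among 10 genes of the cysteinyl leukotriene pathway 3 rose (30%) and 1 fell (10%). Alox5, the lipoxygenase that starts the pathway, was at 4.43, 2.5, 1.85 and 4.31 FPKM and 5.26, 6.95, 5.54 and 5.41 FPKM, and Ltc4s, which joins glutathione to leukotriene A4, at 0.318, 0.374, 0.557 and 0.177 FPKM and 0.72, 1.29, 0.688 and 1.33 FPKM. Both stood higher in every GGsTop library, with 0.71 (SE 0.21, adjusted p = 0.0368) and 0.56 (SE 0.15, adjusted p = 0.027). Of the receptors, Cysltr1 was at 2.16, 1.92, 2.06 and 1.93 FPKM and 1.19, 1.3, 1.146 and 0.907 FPKM (−0.50 (SE 0.09, adjusted p = 0.00615)), and Gpr17 rose by 0.55 (adjusted p = 0.0363). After GC correction limma called no gene of this pathway (at an unadjusted p under 0.05, 0 lower and 2 higher).

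Of 44 genes of glutathione synthesis, glutathione use and NRF2 targets 7 rose (15.9%) and 2 fell (4.55%), with a median of 0.08. The share that rose was near that of all genes, and the share that fell was under it. Gstm1, a glutathione transferase, was at 204, 251, 239.6 and 207 FPKM and 320.4, 291, 376 and 330 FPKM, a change of 0.54 (SE 0.11, adjusted p = 0.0117). Gstm2 rose by 0.39, Gstp1 by 0.41, the peroxiredoxin Prdx6 by 0.55, the extracellular superoxide dismutase Sod3 by 0.39 and Osgin1, a gene induced by oxidative stress, by 0.80, and none of these or Gstm1 was called after GC correction. The Gstm and Gstp genes have close relatives among which reads can be split. Aox1, an aldehyde oxidase, was at 9.47, 9.46, 8.76 and 8.91 FPKM and 16, 13.3, 14.1 and 11.8 FPKM and was called in both fits, with 0.54 (SE 0.09, adjusted p = 0.00554) and 0.63 (adjusted p = 0.0319) after GC correction. Gsta3 was called only after the correction (0.66 (adjusted p = 0.0481)), and on the deposited values was at 0.34 (SE 0.12) (adjusted p = 0.0700). Gpx8, a peroxidase of the endoplasmic reticulum, was at 50.8, 50.8, 57.5 and 52.1 FPKM and 30.2, 34.3, 37.8 and 37.5 FPKM, a change of −0.59 (SE 0.09, adjusted p = 0.00421), and Prdx1 changed by −0.40 (SE 0.10, adjusted p = 0.0227), and neither was called after the correction.

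Most of the calls among matrix genes were higher. Of 37 collagen and matrix genes 10 rose (27%) and 1 fell (2.7%), with a median of 0.25, and limma called none after GC correction (at an unadjusted p under 0.05, 1 lower and 7 higher). The α chains of collagen VI, a beaded filament around cells, rose, Col6a1 by 0.73 (SE 0.13), Col6a2 by 0.67 (SE 0.18) and Col6a3 by 0.57 (SE 0.11). Col6a1 was at 49.1, 52.2, 37.6 and 58.1 FPKM with vehicle and at 73.9, 85.3, 78.2 and 89.7 FPKM with GGsTop. Col18a1, a collagen of basement membranes, rose by 0.57 (SE 0.09) and Col16a1 by 0.58 (SE 0.10).

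Tnxb, which encodes the matrix protein tenascin-X, was at 8.18, 8.51, 5.49 and 8.78 FPKM and 21.7, 17.9, 22.7 and 21 FPKM, with 1.33 (SE 0.14, adjusted p = 0.00248) and 1.03 (adjusted p = 0.0257) after GC correction. Adamtsl4, a partner of fibrillin, was at 8.48, 7.57, 7.22 and 9.11 FPKM and 16.2, 14.9, 17.9 and 16.7 FPKM, and Vasn, a membrane protein that binds TGF-β, at 8.82, 8.5, 9.3 and 9.41 FPKM and 15.5, 15.1, 15.3 and 17.1 FPKM. The groups of these 3 genes stood apart by more than the spread within them, and each was called in both fits. With a library left out, each was called in all 8 fits on the deposited values and in 1 of the 8 GC-corrected fits. The matrix genes Podn, Ltbp3, Ltbp4 and Lamb2 were chosen after their values were seen. Podn, a small leucine-rich proteoglycan, was at 4.74, 4.12, 4.5 and 5.37 FPKM and 9.94, 12.1, 9.56 and 14 FPKM. Ltbp4, which stores latent TGF-β in elastic fibres, was at 46.8, 58.1, 42 and 53.3 FPKM and 102, 86.6, 115 and 94.6 FPKM, Ltbp3 changed by 0.76 (SE 0.08, adjusted p = 0.00287) and Lamb2, the laminin β2 chain, by 0.73 (SE 0.09, adjusted p = 0.00296). All 4 were called after GC correction as well.

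Zyx, which encodes zyxin of focal adhesions, was at 26.3, 29.8, 23.5 and 29 FPKM and 51.6, 50.1, 52.2 and 47.1 FPKM, with 0.87 (SE 0.09, adjusted p = 0.00212) and 0.62 (adjusted p = 0.0334) after GC correction. The genes Vcl, Flna, Tns2, Fblim1, Piezo1 and Lrp1 were chosen after their values were seen. Vcl, which encodes vinculin, was at 11.2, 11.3, 10.1 and 13 FPKM and 18.9, 18.9, 17 and 18.1 FPKM, and Flna, the actin crosslinker filamin A, at 103, 102, 84.4 and 104 FPKM and 181, 159, 153 and 241 FPKM. Tns2, a tensin, changed by 1.08 (SE 0.13, adjusted p = 0.00300), Fblim1 by 0.76 (SE 0.09, adjusted p = 0.00296) and the stretch-activated channel Piezo1 by 0.94 (SE 0.11, adjusted p = 0.00298). Lrp1, an endocytic receptor, was at 18.6, 19.8, 13.8 and 21.1 FPKM and 33.9, 37.2, 37.1 and 38.2 FPKM. None of these genes overlapped between the groups, and all kept their calls after GC correction, at 0.63 for Vcl, 0.71 for Flna and 0.70 for Lrp1.

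Of 24 smooth muscle genes 3 rose (12.5%) and 1 fell (4.17%), with a median of 0.33. Myh11, the smooth muscle myosin, was at 65.8, 71.6, 52.4 and 62.1 FPKM and 97.3, 90.6, 66.4 and 177 FPKM, and Acta2, its actin, at 261, 266, 252 and 259 FPKM and 304, 308, 238 and 542 FPKM. GGsTop 4 held the top value of both, the groups overlapped and neither was called (adjusted p = 0.087 and adjusted p = 0.265). Cacna1c, the pore of a voltage-gated calcium channel, was at 3.14, 3.27, 2.94 and 3.45 FPKM and 6.12, 4.92, 5.18 and 4.73 FPKM and kept its call after GC correction (0.51 (adjusted p = 0.0481)). Mylk, the myosin light chain kinase, changed by 0.46 (SE 0.10, adjusted p = 0.0139) and Smtn, which encodes smoothelin, by 0.67 (SE 0.13, adjusted p = 0.00927), and Rock1, a kinase that keeps muscle contracted, by −0.55 (SE 0.07, adjusted p = 0.00302). These 3 calls were lost after GC correction.

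The Notch pathway, which sets cell fate in airway epithelium and vessels through contact between cells, had 8 higher (40%) and no lower genes of 20, with a median of 0.32 and of 0.18 after GC correction, where limma called none (at an unadjusted p under 0.05, 0 lower and 5 higher). Of the receptors, Notch1 was at 6.34, 5.31, 4.13 and 5.9 FPKM with vehicle and at 14.3, 12, 14.9 and 9.14 FPKM with GGsTop, a change of 1.07 (SE 0.16, adjusted p = 0.00421) and of 0.81 (adjusted p = 0.0515) after the correction. Notch3 was at 9.76, 9.71, 7.24 and 8.27 FPKM and 16.6, 13.6, 17 and 12.4 FPKM, Notch2 changed by 0.43 (SE 0.11, adjusted p = 0.0214), and Notch4, an endothelial receptor, was at 19.8, 18.2, 20.3 and 19.9 FPKM and 49.9, 30.01, 56.8 and 23.4 FPKM. GGsTop 1 and 3 held the upper values of Notch4, which was called in 2 of 8 fits with a library left out. The ligand Jag2 changed by 0.56 (SE 0.15, adjusted p = 0.0308), the target Heyl by 0.40 (SE 0.08, adjusted p = 0.00869) and Lfng, which modifies the receptors, by 0.35 (SE 0.07, adjusted p = 0.0103). The transcripts of this list had a median GC content of 54.7%. The mean log2(FPKM + 1) of the list was 3.36, 3.4, 3.3 and 3.35 with vehicle and 3.85, 3.62, 3.94 and 3.44 with GGsTop. The endothelial marker Cdh5 was at 155, 174, 167 and 151 FPKM with vehicle and 215, 157, 236 and 100.4 FPKM with GGsTop and Pecam1 at 118, 131, 141 and 124 FPKM with vehicle and 158, 114, 164 and 81.3 FPKM with GGsTop, so that GGsTop 1 and 3 were above and GGsTop 4 below the other libraries for these markers, the same GGsTop libraries that held the top and bottom levels of the Notch list. The part of endothelial content in the Notch values was not tested.

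Of the vessel genes, Vwf, the clotting factor of endothelium, was at 17, 17.2, 13.6 and 18 FPKM and 34.5, 25.5, 26.3 and 26.4 FPKM, a change of 0.74 (SE 0.12, adjusted p = 0.00504), and Nos3, the endothelial nitric oxide synthase, changed by 0.48 (SE 0.11, adjusted p = 0.0164). Of 19 endothelial genes 2 rose (10.5%) and 1 fell (5.26%), with a median of 0.17, and limma called none after GC correction (at an unadjusted p under 0.05, 2 lower and 1 higher).

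In the epithelium, lists of ion transport, alveolar, club cell and ciliary genes were called about as often as all genes or less often. Of 18 ion transport genes 3 rose (16.7%) and 1 fell (5.56%). Scnn1a, a subunit of the sodium channel ENaC that absorbs airway liquid, was at 31.9, 36.6, 31 and 33 FPKM with vehicle and at 67, 57.9, 62.5 and 56.3 FPKM with GGsTop, without overlap, a change of 0.86 (SE 0.08, adjusted p = 0.00205) and of 0.60 (adjusted p = 0.0374) after GC correction. Scnn1b, its partner, was at 14.9, 21.5, 19.6 and 17.6 FPKM and 32.5, 26.6, 36.5 and 19.9 FPKM, and the overlap of GGsTop 4 left it called in 1 of 8 fits with a library left out and not after GC correction (0.39 (adjusted p = 0.291)). Kcnq1, a potassium channel, rose by 0.51 (SE 0.11) and Slc12a2, the cotransporter that loads chloride for secretion, changed by −0.42 (adjusted p = 0.0439), and neither was called after the correction.

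Of 19 alveolar and surfactant genes 3 rose (15.8%). Abca3, the lipid pump of lamellar bodies, was at 18.6, 18.8, 12.7 and 20.1 FPKM and 27.7, 33.2, 31.1 and 28.9 FPKM, a change of 0.77 (SE 0.14, adjusted p = 0.00652), and Sftpb, a surfactant protein, at 283, 381, 285 and 385 FPKM and 645, 742, 1014 and 357 FPKM. GGsTop 4 lay within the vehicle range for Sftpb, which was called in 1 of 8 fits with a library left out. Among 22 club cell genes, 1 of which rose (4.55%) and 1 fell (4.55%), Cbr2, a carbonyl reductase, was at 1443, 2065, 1860 and 1992 FPKM and 3158, 3169, 3425 and 3524 FPKM, a change of 0.86 (SE 0.17, adjusted p = 0.00995). Among 22 xenobiotic enzymes, Por, the reductase that feeds electrons to P450 enzymes, changed by 0.79 (SE 0.14, adjusted p = 0.00659), Cyp2s1 by 0.58 (SE 0.12, adjusted p = 0.0111) and Ephx1, an epoxide hydrolase, by 0.46 (SE 0.10, adjusted p = 0.0125). None of these genes was called after GC correction. Of 29 genes of motile cilia 1 rose (3.45%) and 1 fell (3.45%). Myb, which starts the multiciliated programme, was at 6.05, 4.39, 4.32 and 4.49 FPKM and 2.92, 2.47, 2.66 and 3.62 FPKM and changed by −0.57 (adjusted p = 0.0134), and Rfx2 rose by 0.53 (adjusted p = 0.0423), and neither was called after the correction (−0.52 (adjusted p = 0.0577) and 0.36 (adjusted p = 0.19)).

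Calls among hypoxia genes were few, and those in the respiratory chain were all in the lower direction. Bnip3, a HIF target that sends mitochondria to autophagy, was at 11.3, 14, 13.8 and 13 FPKM with vehicle and at 5.25, 5.41, 5.4 and 7.4 FPKM with GGsTop, a change of −1.04 (SE 0.11, adjusted p = 0.00287) and of −0.76 (adjusted p = 0.0321) after GC correction. Hif1a was at 16.3, 14.9, 16.7 and 14.9 FPKM and 10.2, 11, 9.75 and 10.2 FPKM, a change of −0.56 (SE 0.07, adjusted p = 0.00298) that was not called after the correction (−0.28 (adjusted p = 0.0738)). Adm, which encodes the vasodilator adrenomedullin, was at 9.72, 8.01, 7.59 and 9.06 FPKM and 4.68, 6.001, 4.38 and 7.18 FPKM, and kept its call (−0.63 (adjusted p = 0.0484)). Hif3a, which restrains HIF activity, was at 0.346, 0.302, 0.271 and 0.25 FPKM and 1.22, 0.78, 0.954 and 0.987 FPKM and was called in both fits. With a mean of 0.275 FPKM in the PBS libraries, Hif3a passed the level filter only through GGsTop, so the filter favoured its rise. These 4 genes were all that was called of 27 genes of glycolysis and hypoxia, where the median was 0.03.

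All 13 genes encoded in the mitochondrion had a lower mean with GGsTop, 8 past the threshold (61.5%), and 4 of these after GC correction. Their transcripts took 19.5%, 14.5%, 17.4% and 16.3% of all FPKM with vehicle and 10.1%, 10.9%, 7.40% and 11.1% with GGsTop. mt-Nd6, the gene on the light strand, was at 1797, 1546, 1778 and 1662 FPKM and 627, 573, 478 and 710.5 FPKM, with −1.52 (SE 0.15, adjusted p = 0.00212) and −1.10 (adjusted p = 0.0292) after GC correction. mt-Nd2, on the heavy strand, was at 7525, 5630, 7051 and 6309 FPKM and 2946, 3171, 2191 and 3356 FPKM, with −1.19 (SE 0.22, adjusted p = 0.00738) and −0.79 (adjusted p = 0.0984) after the correction. mt-Co2 was at 141, 107, 154 and 290.4 FPKM and 58, 57.1, 56.5 and 65.2 FPKM, with −1.07 (adjusted p = 0.0729) after the correction. The wide range of levels among these genes is that of the deposited table, and reads shared with nuclear copies are a limit for all of them. Of 75 nuclear genes of the chain 16 fell (21.3%) and none rose, with a median of −0.33 (after GC correction 5 fell). The mean log2(FPKM + 1) of this list was 5.84, 5.47, 5.8 and 5.59 with vehicle and 5.09, 5.62, 5.08 and 5.58 with GGsTop. GGsTop 1 and 3 lay below the vehicle libraries and GGsTop 2 and 4 within their range, and the markers of fat and heart muscle, tissues rich in mitochondria, were also lowest in GGsTop 1 and 3 among the GGsTop libraries. Ucp1 of brown fat was at 363, 74.2, 138 and 94.8 FPKM and 0, 54.7, 0.232 and 24.7 FPKM, and Myh6, the myosin of the atrium, at 192, 122, 171 and 192 FPKM with vehicle and 179, 376, 93.9 and 435 FPKM with GGsTop. The part of these tissues in the list's values was not tested. Uqcrb, a subunit of complex III, was at 66.9, 58.8, 76.5 and 63.3 FPKM and 28.7, 44.3, 32.3 and 44.4 FPKM (−0.83 (SE 0.15, adjusted p = 0.00773)), and Ndufc2, a subunit of complex I, at 107, 105, 128 and 93.1 FPKM and 64.9, 81.2, 70.9 and 70.8 FPKM (−0.58 (SE 0.11, adjusted p = 0.00889)). Ndufc2 kept its call after GC correction and Uqcrb did not (−0.51 (adjusted p = 0.11)). Crls1, which makes the mitochondrial lipid cardiolipin, and Gk, a glycerol kinase, were chosen after their values were seen. They changed by −0.89 (SE 0.16, adjusted p = 0.00613) and −1.04 (SE 0.14, adjusted p = 0.00319), and both kept their calls.

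Cholesterol synthesis split. Of 21 genes 4 fell (19%) and 6 rose (28.6%), with a median of −0.03. Hmgcs1, an early enzyme, was at 29.2, 27.3, 27.7 and 21.6 FPKM and 14, 17.3, 16.6 and 13.9 FPKM, a change of −0.73 (SE 0.11, adjusted p = 0.00434) that was not called after GC correction (−0.51 (adjusted p = 0.0565)), and Msmo1, a demethylase of the late steps, changed by −0.56 (SE 0.08, adjusted p = 0.00368) and kept its call (−0.41 (adjusted p = 0.0484)). Idi1 and Cyp51 changed by −0.50 and −0.31 and lost their calls. Srebf2, the factor that switches the pathway on, rose by 0.42 (SE 0.06), Mvk by 0.46 (SE 0.08) and Mvd by 0.38 (SE 0.09), and none of these rises held after the correction. In fatty acid metabolism, Cd36, a fatty acid transporter, was at 389.7, 394, 391.7 and 335 FPKM and 252, 223, 241 and 191 FPKM, a change of −0.74 (SE 0.11, adjusted p = 0.00438) (−0.37 (adjusted p = 0.104) after GC correction), and Ppard, a nuclear receptor for fatty acids, was at 2.996, 3.09, 2.11 and 3.14 FPKM and 5.08, 4.36, 4.29 and 4.68 FPKM and was not called after the correction either (0.45 (adjusted p = 0.0651)).

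Several chaperones of the endoplasmic reticulum were lower, while the stress sensor Ern1 and the stress-induced Ddit3 and Herpud1 were higher. Of 27 genes 6 fell (22.2%) and 3 rose (11.1%). Hspa5, the chaperone BiP, was at 149, 160, 179 and 188 FPKM and 103, 119, 116 and 152 FPKM, a change of −0.47 (SE 0.13, adjusted p = 0.0315), and Hsp90b1 changed by −0.42 (SE 0.09, adjusted p = 0.0149), the cochaperone Dnajb9 by −0.54 (SE 0.08, adjusted p = 0.00409), Dnajc3 by −0.37 (SE 0.07, adjusted p = 0.00877) and calnexin, Canx, by −0.35 (SE 0.07, adjusted p = 0.00735). Ern1, which encodes the sensor IRE1α, changed by 0.40 (SE 0.10, adjusted p = 0.0233), Ddit3, the factor CHOP, by 0.41 (SE 0.11, adjusted p = 0.0308) and Herpud1 by 0.50 (SE 0.12, adjusted p = 0.0199). Pdia3, described above, was the 1 member called after GC correction.

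Of 76 cytosolic ribosomal protein genes 7 fell (9.21%) and 1 rose (1.32%), with a median of −0.04. Rps15a was at 44.9, 46.4, 50.7 and 43.8 FPKM and 28.3, 32.6, 31.9 and 27.2 FPKM, a change of −0.62 (SE 0.08, adjusted p = 0.00329) and of −0.50 (adjusted p = 0.0457) after GC correction, and Rps2 changed by 0.41 (SE 0.11, adjusted p = 0.0273), a call that was lost after the correction (0.18 (adjusted p = 0.324)). Many of these genes have processed pseudogenes with which reads can be shared.

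Several single genes were called with small p-values in both fits. Atp7b, which exports copper, was at 4.73, 5.97, 4.91 and 5.41 FPKM and 14.4, 11.7, 12.3 and 12.4 FPKM, with no overlap and 0.98 (adjusted p = 0.0242) after GC correction. Coro6, a coronin, changed by 0.91 (SE 0.09, adjusted p = 0.00212). Top2b, a topoisomerase, was at 15, 14.9, 15.4 and 14.4 FPKM and 9.25, 9.06, 8.95 and 8.58 FPKM, a change of −0.68 (SE 0.06, adjusted p = 0.00193). Sp3, a transcription factor at GC boxes, was at 28, 27.1, 27.4 and 28.1 FPKM and 17.6, 17.4, 17.9 and 17 FPKM, and Lypla1, a depalmitoylating enzyme, at 11.3, 10.6, 11.6 and 10 FPKM and 6.01, 5.95, 5.6 and 5.8 FPKM. The last 3 genes differed by less than 1 on the log2 scale and were tight within both groups. Sox4, Eid1, Fcor, Dnase1l2 and Rac3 were chosen after their values were seen. Sox4, a progenitor factor, was at 21.8, 19.7, 14.4 and 17.5 FPKM and 8.89, 8.65, 11.2 and 7.75 FPKM (−0.93 (SE 0.14, adjusted p = 0.00421)), and Eid1, an inhibitor of histone acetylation, at 33.6, 46, 48.8 and 42.8 FPKM and 20.7, 21.1, 22.8 and 21.7 FPKM (−0.94 (SE 0.11, adjusted p = 0.00296)). Fcor, a corepressor of FOXO1 in fat, changed by −1.17 (SE 0.24, adjusted p = 0.0105), Dnase1l2 by 1.08 (SE 0.16, adjusted p = 0.00391) and Rac3, a small GTPase, by 1.002 (SE 0.12, adjusted p = 0.00296), and all 5 were called after GC correction. Gm17720, a gene model of unknown role with the largest rise among the called genes, was at 2.39, 2.34, 4.65 and 0 FPKM and 4.92, 25.5, 9.39 and 17.5 FPKM and was not called after the correction (2.38 (adjusted p = 0.0707)). Its length is only 27 bases, so these FPKM stand for few fragments. The lowest library held 0 fragments with vehicle and 2 with GGsTop.

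Lipf, Tg, Cxcl5 and Ucp1 had the largest falls among the called genes, and Lipf, Tg and Ucp1 mark neighbouring tissue. Lipf, a lipase of gland or stomach, was at 60.03, 219, 590.2 and 0.254 FPKM with vehicle and 0.471, 0.83, 0.539 and 0.0958 FPKM with GGsTop, Tg, the thyroid hormone precursor, at 90.6, 166, 303 and 0.256 FPKM and 1.44, 0.147, 0.200 and 0.251 FPKM, and Pth, parathyroid hormone, at 5.997, 91.8, 224 and 0 FPKM and 0.468, 0, 0 and 0 FPKM. Vehicle 12, 34 and 56 held these transcripts, and Vehicle 78 lay within the range of the GGsTop libraries. Lipf, at −5.27 (adjusted p = 0.0435), and Tg, at −5.10 (adjusted p = 0.0377), were each called in 1 of 8 fits with a library left out and not after GC correction (−5.01 (adjusted p = 0.116) and −5.21 (adjusted p = 0.0962)). Ucp1, the uncoupler of brown fat whose values stand above, was not called after GC correction (−4.37 (adjusted p = 0.0987)), and Adipoq, adiponectin, was at 68.5, 22.1, 33.7 and 27.9 FPKM and 1.78, 19.6, 0.688 and 28.7 FPKM. GGsTop 1 and 3 were the low libraries for fat, as they were for cartilage. Of 25 fat genes 2 fell (8%), with a median of −0.95, and of 11 thyroid and parathyroid genes 3 fell (27.3%), with a median of −1.41. Of 9 gland genes 2 fell (22.2%), with a median of −1.71. Some such genes passed the level filter only through vehicle libraries, which fixed a lower direction in advance. Scg2 of the thyroid and parathyroid list averaged 3.45 FPKM with vehicle, 0.314 FPKM with GGsTop and 0.18 FPKM with PBS. Dcpp2, a gland marker, was at 10.7, 23.9, 304 and 0.245 FPKM with vehicle and at 0 FPKM in every GGsTop library. The counts and medians of the thyroid and gland lists carry this limit. Dmbt1, a mucosal glycoprotein of gland and airway, was at 9.56, 20.5, 36.8 and 2.05 FPKM and 0.103, 0.893, 0.0328 and 2.43 FPKM. Its vehicle libraries ordered as those of Lipf and Tg did, with 56 at the top and 78 at the bottom, the groups overlapped, it was not called after GC correction (−3.03 (adjusted p = 0.068)), and the part of gland tissue in its fall was not tested.

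**Figure D5:**
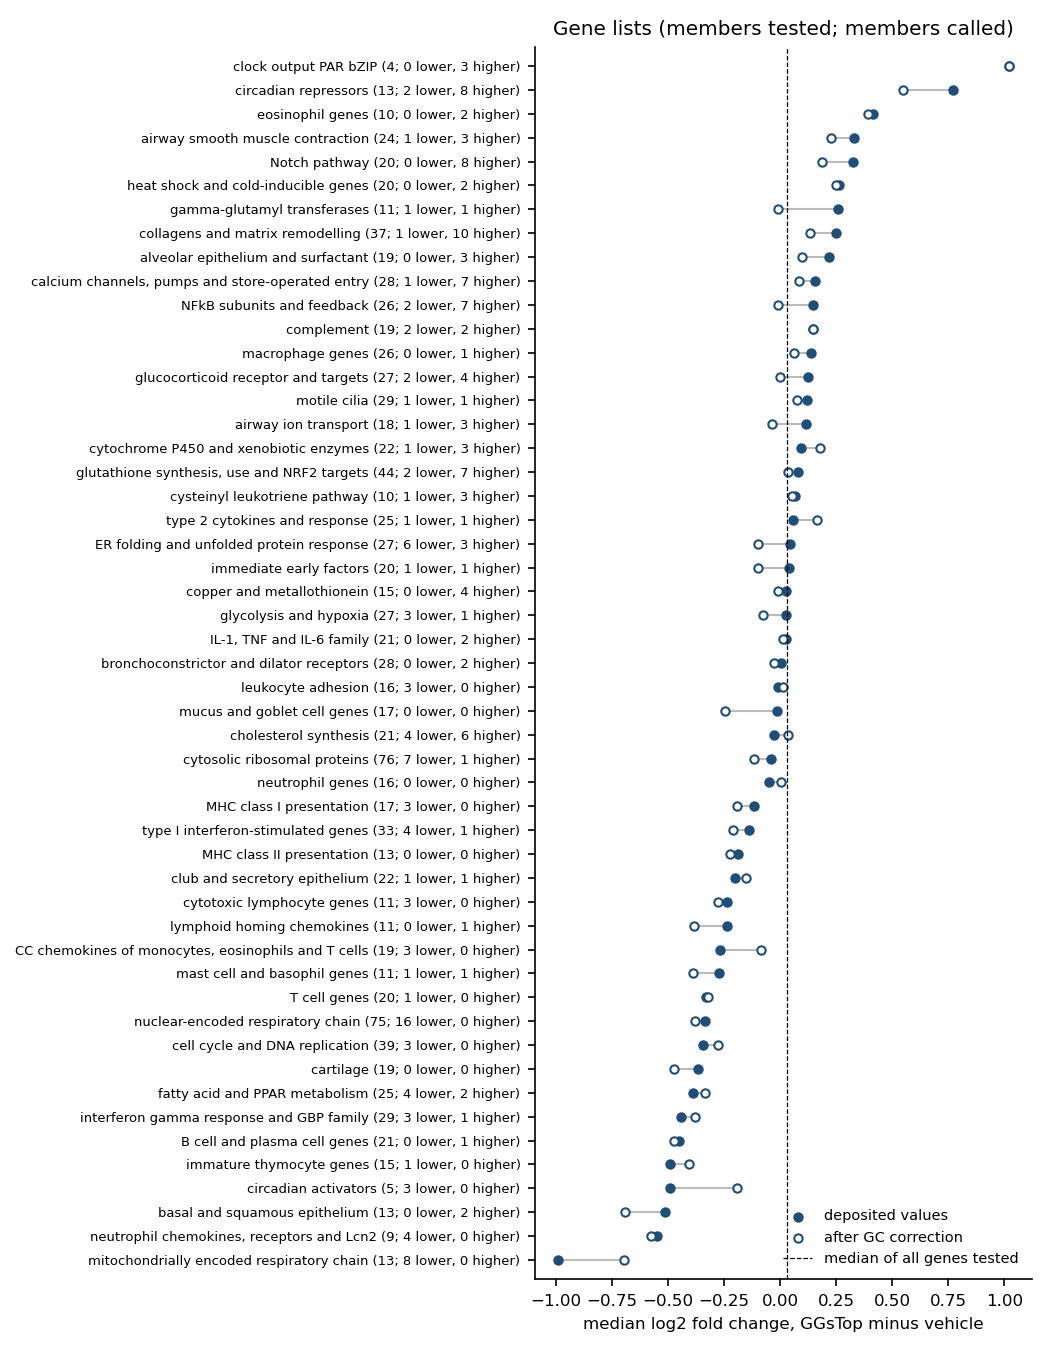
Median log2 fold change of GGsTop against vehicle for gene lists on the deposited values and after GC correction, with the number of members lower and higher at an adjusted p under 0.05. The lists of fat, gland, thyroid, vessels and other tissues around the airway, 2 of which had medians below −1, are not drawn. Among the lists drawn, the clock outputs and repressors lie farthest to the right and the mitochondrially encoded genes farthest to the left.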

How the data were processed

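RNA was sequenced from poly-A mRNA of airway tissue. The authors deposited FPKM for each gene and library, without further scaling between libraries. The submitters' processing notes name cutadapt 1.15, HISAT2 2.0.5, HTSeq 0.9.1 and mm39, and the annotation is not given in the sources used here. Exon lengths of GENCODE M21 gave the fragment counts.

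Log2(FPKM + 1) of the 8 libraries entered limma 3.58.1 (R 4.3.3), with empirical Bayes moderation along a mean-variance trend, two-sided p-values and Benjamini-Hochberg adjustment over 14004 genes. The study's count-based test could not be run on FPKM as deposited. GC content was corrected for by subtracting a spline (5 degrees of freedom) of each library's deviations on the GC content of the longest transcript. This correction, the GC and length correction and their fits with a library left out were chosen after seeing the data. Genes under 0.5 FPKM were compared by an exact permutation test. The fit was also run on simulated data with known changes, with and without a GC slope. Those data had a fixed spread and none of the tissue differences between libraries, so that run does not bear on the calls given here.

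The members and lists were chosen with earlier results of these data known, and a list's median is set beside that of all genes. Genes named are the 15 of smallest p and 10 of largest change in each direction, up to 4 called members of a list in each direction, or 2 of highest level where none was called, the transferase genes, and genes the study names. The defining markers of cell types are given as well. A few genes that meet the rule are not reported here. Bhlhe40, Bhlhe41, Ciart, Csnk1d, Nfil3, Nr1d2, Rora, Wee1, Cmklr1, Flt3l, Stab1, Il6, Il17a, Nfkb1, Tnfaip2, Muc5b, Gsta3, Gstp1, Prdx6, Sod3, Col6a2, Col6a3, Lamb2, Ltbp3, Ltbp4, Podn, Fblim1, Flna, Lrp1, Piezo1, Tns2, Vcl, Jag2, Notch2, Notch4, mt-Co2, mt-Nd2, Crls1, Gk, Hsp90b1, Hspa5, Dnase1l2, Eid1, Fcor, Rac3 and Sox4 were chosen outside this rule, after their values were seen. Alternatives were another pseudocount, filter, scaling and variance model, all 11 libraries, voom on recovered fragments, and each library left out. Promoter windows are those of RefSeq (GRCm38.p6), 250 bases before the start. Python 3.11.15 with pandas 2.3.3, numpy 2.4.6 and matplotlib 3.10.9 made tables and figures.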

Additional observations from a re-analysis of the deposited data

Results flagged for a closer look

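In 526 groups of 4 libraries, 1 group for each gene or list and treatment, 30 had an extreme library whose gap to its nearest neighbour was too large a share of the range of the group by Dixon's 95% critical value. Chance gives about 1 in 20 groups. The extreme values follow, in FPKM unless stated otherwise, without an explanation of any of them.

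Among genes of the interferon and leukotriene lists, vehicle libraries stood apart for Socs1 (4.17), Gbp7 (31.1) and Ifitm5 (1.48), and GGsTop libraries for Ifngr2 (14.8) and Alox5 (6.95). The interferon-γ and GBP list had an extreme vehicle library, with a mean log2(FPKM + 1) of 3.77, and an extreme GGsTop library, at 2.48. The IL-1, TNF and IL-6 list had a vehicle library at 2.71 on that scale. The genes of glutathione held an extreme vehicle value for Ggt1 (1.25) and extreme GGsTop values for Ggt1 (0.242), Chac2 (7.04), Gstm2 (101.6) and Prdx1 (95.2).

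For matrix, muscle and signalling genes, an extreme vehicle library was seen in Ltbp3 (10.5), Flna (84.4), Notch2 (8.68) and Map3k6 (4.28), a kinase of stress signalling, and an extreme GGsTop library in Ltbp3 (23.6) and Vwf (34.5). The smooth muscle list had a vehicle library at a mean log2(FPKM + 1) of 4.51, and the mitochondrially encoded list 1 at 8.44. Metabolic and other genes with an extreme vehicle library were Cd36 (334.6), Ppard (2.11), Ern1 (5.07) and Myb (6.05), and those with an extreme GGsTop library Bnip3 (7.40), mt-Co2 (65.2), Srebf2 (26.0), Mvd (12.3) and Tg (1.44).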

How the results depend on the processing

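On the deposited values 1406 genes were lower and 2119 higher with GGsTop. Fitting all 11 libraries left 254 lower and 966 higher genes, the GC correction 82 and 120, and the GC and length correction 19 and 32. With 1 library left out, the counts ran from 828 to 1639 lower and from 1274 to 2529 higher genes, and moved by over 1.5 times without Vehicle 34 (889 and 1304), Vehicle 56 (828 and 1274) and GGsTop 1 (1373 higher). After GC correction they ran from 0 to 340 lower and from 0 to 636 higher, with the upper end without GGsTop 4. Scaling moved the balance of directions: with libraries set to the same median 1661 genes were lower and 1682 higher, and to the same total without mitochondrial genes 1384 and 1595. The pseudocount, the filter, the variance trend, array weights and voom on the recovered fragments kept both counts within 1.5 times. Of the 3525 genes called, 1220 kept their call and direction with all 11 libraries, 185 after GC correction, 48 after GC and length correction, and 2071 to 3172 with a library left out. Chac2 turned from −0.47 to 0.16 under the GC and length correction, and the cause was not tested. The 4 libraries of each group limit what can be called, and genes near 0.5 FPKM rest on few fragments. No paired analysis was possible because the labels of the vehicle libraries (12, 34, 56 and 78) and of the GGsTop libraries (1 to 4) share no number.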
